A study of Homo sapiens with 24 samples.

Results

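The human proteasome is built from proteins encoded by the PSM genes. Taken as every protein-coding gene whose symbol is PSMA, PSMB, PSMC, PSMD, PSME, PSMF or PSMG followed by a number, they came to 48 of the 57979 genes of the expression table, and all 48 had a row. They were set out by role as 14 genes of the 20S core, 17 of the 19S regulatory particle, 7 that are inducible or tissue-specific, and 10 that encode assembly chaperones and other activators or inhibitors.

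The cells were Huh7, an established human hepatoma line, either wild type (WT) or with a knockout (KO) of ABHD6, an enzyme of monoacylglycerol breakdown. WT and KO cells were sampled in basal medium (0 h), at 24 h and at 48 h of treatment with the saturated fatty acid palmitic acid (800 µM), and each of these 6 groups had 4 libraries. Every group with palmitic acid was also later in culture than 0 h, and no library had the same time without the acid, so acid and time cannot be told apart. Neither the number of KO clones nor separate cultures for the libraries of a group are named in the labels, so the p-values reflect the spread among these libraries, which may be technical.

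The 20S core is a barrel of stacked rings. Its outer alpha rings gate entry, and its inner beta rings carry the protease sites. The 19S particle sits on the ends, recognises ubiquitin-tagged proteins, unfolds them with a ring of ATPases and feeds them in. Cells exposed to interferon can replace the 3 constitutive catalytic subunits with inducible ones, which makes the immunoproteasome, and add the 11S activator. Transcription of the core and 19S genes is known to be raised by the factor NFE2L1 through antioxidant response elements.

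Values are FPKM, fragments scaled to transcript length and to the fragments of the library. The smallest steps between values put 393350 to 708053 fragments behind a library, so that 1 fragment on a 2 kb transcript was worth 0.706 to 1.27 FPKM. Together the 48 genes summed to a group mean of 1879 FPKM (WT) and 1944 FPKM (KO) at 0 h, to 1773 and 1799 FPKM at 24 h, and to 1698 and 1742 FPKM at 48 h. Without PSMG4, the highest of them, the sum was 1413 (WT) and 1471 FPKM (KO) at 0 h and 1292 and 1365 FPKM at 48 h. Their share of all summed FPKM was 0.170% (WT) and 0.169% (KO) at 0 h and 0.193% and 0.203% at 48 h, with all 48 genes counted. All summed FPKM itself fell, from a group mean of 1106530 (WT) and 1151070 (KO) at 0 h to 886559 and 857235 at 48 h. All 8 hepatocyte markers looked up were listed with a mean above 0 in every group, summing to 745 to 1819 FPKM per library. The immune cell markers, which matter here because immune cells carry the immunoproteasome constitutively, summed to 3.16 to 43.4 FPKM per library over 8 genes. LST1 and TYROBP were at 0 in all 24 libraries, 3 to 6 of the 8 had a mean above 0 in a group, and 4 averaged at least 0.5 FPKM. ABHD6 was above 0 in 3 of 12 WT and 4 of 12 KO libraries, never above 1.16 FPKM, and so does not check the genotype labels.

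All levels and changes, those of the markers above included, share a limit of strand. The libraries were made with a directional kit, and no strand setting is given in the sources used here. Genes annotated as antisense held 44.0% to 58.1% of a library's summed FPKM. In 540 pairs of an antisense gene and the coding gene it mostly overlaps, the antisense member averaged more in 443 (82.0%). The transcript antisense to GAPDH averaged 37290 FPKM and GAPDH itself 239 FPKM. If reads were counted on the strand opposite to the RNA, the value of a gene would hold stray or antisense reads of its locus in place of most of its mRNA. A level given here is therefore the listed FPKM and not a measured amount of mRNA. The antisense share moved with time, from 57.0% (WT) and 57.2% (KO) at 0 h to 47.0% and 47.1% by 24 h, then 45.9% and 44.6% by 48 h (means of 4 libraries). The share of mitochondrially encoded genes moved too, from 3.53% and 3.89% at 0 h to 11.1% and 13.8% at 48 h. The part of these shifts in the changes below was not tested.

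The constitutive core and 19S genes were all listed above 0 in every group, and of the 3 immunoproteasome catalytic genes PSMB8 and PSMB9 were at or near 0. Over the 24 libraries the 14 core genes had a median level of 26.5 FPKM, from 4.74 FPKM for PSMB2 to 166 FPKM for PSMA3. The 17 regulatory genes had a median of 31.0 FPKM, from 9.18 FPKM for PSMD12, a lid subunit, to 74.7 FPKM for PSMD2, a base subunit. Of the 7 inducible or tissue-specific genes, PSME2 at 20.04 FPKM, PSME1 at 9.50 FPKM and PSMB10 at 5.47 FPKM were the only ones to reach a mean of 0.5 FPKM.

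**Figure D1:**
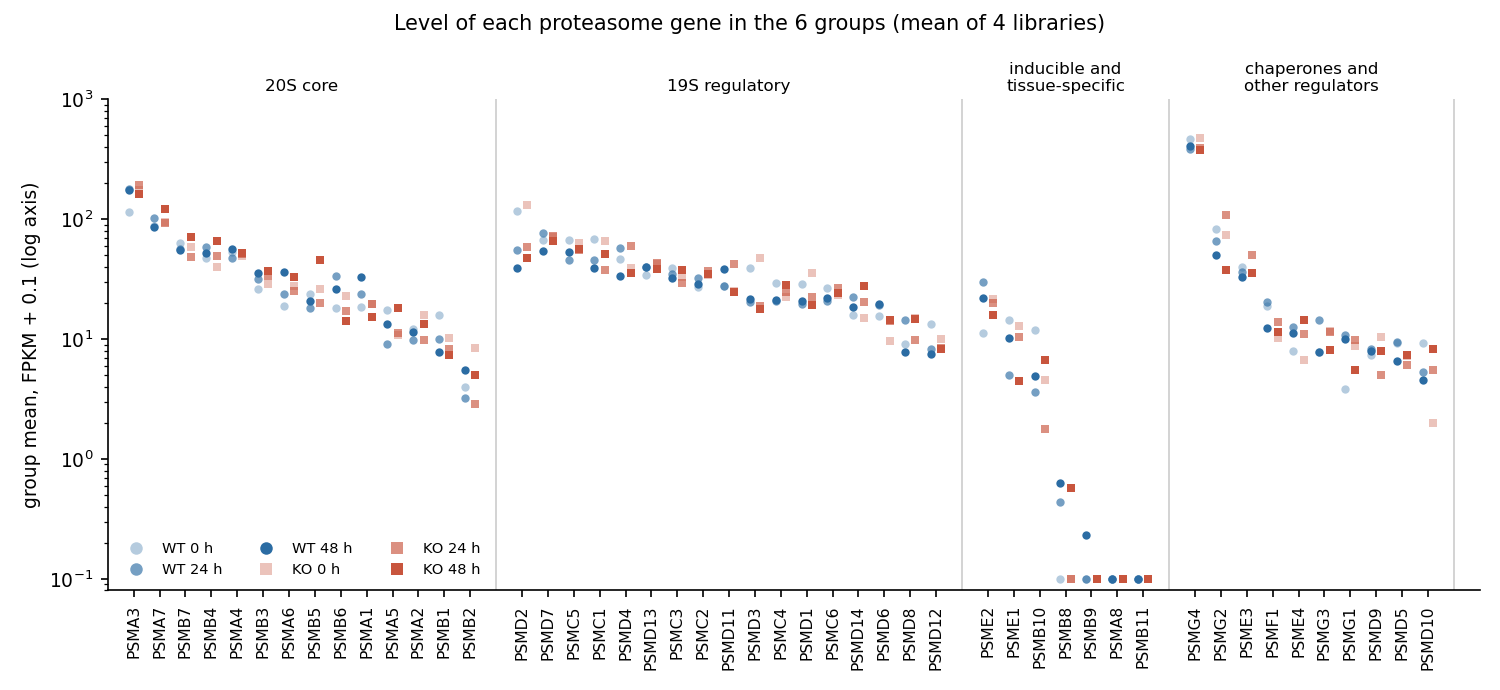
Mean FPKM of each of the 48 proteasome genes in each of the 6 groups (4 libraries a group; blue circles WT, red squares KO; darker with time), with 0.1 FPKM added and a log axis, ordered by level within each role. PSMG4 stands at 416 FPKM over all libraries, and PSMB8, PSMB9, PSMA8 and PSMB11 lie at or near the bottom.

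Levels within the 20S assembly chaperones spread the most. PSMG4 averaged 416 FPKM and PSMG2 69.5 FPKM, while PSMG3 and PSMG1 averaged 10.1 and 8.04 FPKM (these 4 and PSMD7 were singled out after their values were seen). PSMG4 overlaps exons of SLC22A23 and TUBB2B, a tubulin gene, on the opposite strand over 1562 of its 10418 exon bases. Those neighbours averaged 13.0 and 13.3 FPKM. In all, 19 of the 48 genes overlap an exon on the opposite strand, and their median level was 20.04 FPKM against 23.8 FPKM for the 29 with no overlap. PSMD7, a lid subunit, averaged 68.0 FPKM, while AC009120.2, a non-coding transcript that overlaps it on the opposite strand, averaged 3588 FPKM. The 6 other non-coding partners averaged between 0.915 FPKM and the 9.75 FPKM of PSMB8-AS1, whose partner PSMB8 averaged 0.222 FPKM. AC009120.2 was listed at 4400 ± 426 FPKM in WT and 4815 ± 212 FPKM in KO at 0 h, and at 2735 ± 260 FPKM and 2866 ± 225 FPKM at 48 h (SD, n = 4). PSMD7 itself was at 67.2 ± 12.5 FPKM in WT at 0 h and 54.6 ± 6.91 FPKM at 48 h, and was not called in any comparison.

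To ask which proteasome genes changed with palmitic acid, each treated group was compared with 0 h of the same genotype. A gene was taken as called where limma, run on log2(FPKM + 0.5) of 17252 genes, gave it a Benjamini-Hochberg adjusted p below 0.05. Changes are on that log2 scale, with the standard error (SE) of the fit. Of the 48 genes 44 passed the filter of a mean of 0.5 FPKM. The regulatory subunits PSMD2 and PSMD3 fell, the core subunit PSMA3 rose in WT, and the activator PSME4 rose in KO. No other PSM gene was called.

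In WT 1 of 44 genes was called at 24 h, against 4.06% of all genes tested, and 2 at 48 h, against 6.79%. In KO 2 were called at 24 h, against 5.64%, and 3 at 48 h, against 9.82%. Unadjusted p-values under 0.05 were reached by 8, 8, 7 and 9 of the 44 genes in the same order (18.2%, 18.2%, 15.9% and 20.5%), against 15.8%, 18.8%, 17.8% and 21.7% of all genes tested. These shares are near those of all genes tested. Only PSMB2 of the 44 averaged under 5 FPKM, and among the 8097 tested genes averaging 5 FPKM or more larger shares were called. Those shares were 7.77% and 12.9% in WT at 24 h and 48 h and 10.6% and 18.4% in KO. Whether the proteasome genes as a group differ from genes of like level was not tested, so no result about the group is drawn. Under either rescaling (median-of-ratios, quantile normalization) 5 of the 44 were called in KO at 48 h, against 9.63% and 8.25% of all genes. The median change over the 44 genes was -0.14 and -0.05 in WT at 24 h and 48 h and -0.03 and 0.00 in KO, while that over the 8097 tested genes averaging 5 FPKM or more lay between -0.14 and -0.07. The 24 h and 48 h comparisons of a genotype share their 0 h libraries.

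**Figure D2:**
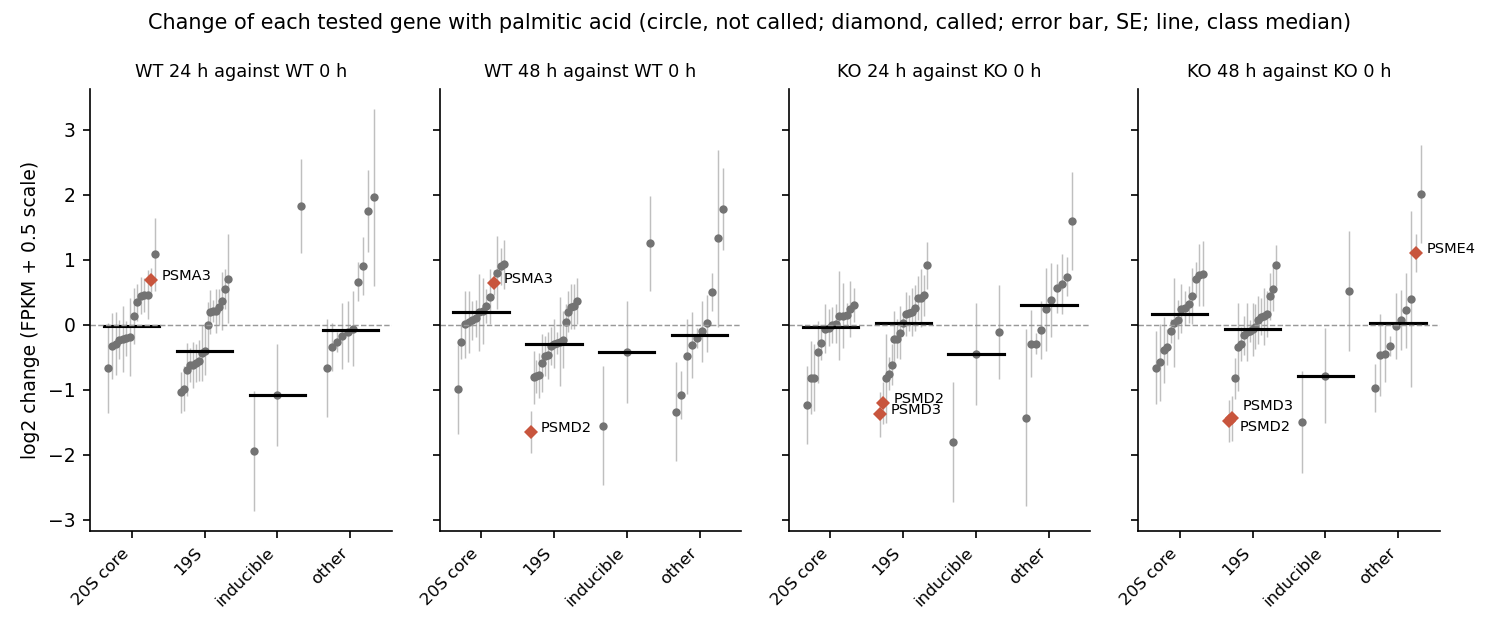
log2 change of each of the 44 tested proteasome genes in the 4 comparisons with 0 h, by role (error bars, SE; horizontal lines, class medians). Called genes are red diamonds: PSMA3 up in WT, PSMD2 down in WT at 48 h and in KO, PSMD3 down in KO, and PSME4 up in KO at 48 h.

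The 19S particle held the genes that fell. PSMD2 encodes the large base subunit that serves as a docking platform for ubiquitin receptors, on chromosome 3 from 184298709 to 184309054 (GRCh38, plus strand). At 0 h its 4 libraries read 123, 162, 79.0 and 102 FPKM in WT and 162, 90.9, 136 and 139 FPKM in KO. At 24 h they read 74.2, 49.8, 48.8 and 48.4 FPKM in WT and 34.1, 70.3, 73.0 and 55.0 FPKM in KO, and at 48 h 24.5, 22.7, 41.7 and 67.3 FPKM and 31.3, 45.3, 49.7 and 62.7 FPKM. All 16 treated libraries (22.7 to 74.2 FPKM) lay below all 8 at 0 h (79.0 to 162 FPKM), and estimated group means were 138 to 307 fragments. The change was -1.66 ± 0.32 in WT at 48 h (limma, adjusted p = 0.00183), which is 2.98-fold lower by the means. It was -1.21 ± 0.32 (adjusted p = 0.0263) in KO at 24 h and -1.48 ± 0.32 (adjusted p = 0.00308) in KO at 48 h. In WT at 24 h it was -1.04 ± 0.32 with an adjusted p of 0.0727, not called. The call in KO at 24 h was lost when any 1 of 5 libraries was left out (KO 0 h replicates 0, 2 and 3, KO 24 h replicates 0 and 3), with adjusted p from 0.0607 to 0.103. The call in KO at 48 h held under all alternatives, and that in WT at 48 h was lost only in a fit of those 2 groups alone (adjusted p = 0.0725).

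PSMD3, a lid subunit on chromosome 17 from 39980797 to 39997960 (plus strand), read 33.3, 63.2, 31.8 and 28.8 FPKM in WT and 49.6, 42.5, 40.3 and 56.9 FPKM in KO at 0 h. In KO it read 12.0, 14.5, 18.3 and 30.5 FPKM at 24 h and 18.5, 16.9, 10.3 and 25.7 FPKM at 48 h, with no overlap with 0 h. In WT it read 29.2, 20.9, 9.10 and 21.2 FPKM at 24 h, where 1 library reached into the 0 h range, and 19.7, 18.4, 24.7 and 23.9 FPKM at 48 h, where none did. The change in KO was -1.38 ± 0.35 at 24 h (limma, adjusted p = 0.0173) and -1.44 ± 0.35 at 48 h (adjusted p = 0.00765). In WT the values were -0.99 ± 0.35 (adjusted p = 0.128) and -0.78 ± 0.35 (adjusted p = 0.214), not called. The difference between the KO and WT changes was -0.40 ± 0.49 at 24 h and -0.66 ± 0.49 at 48 h (limma, adjusted p = 0.941 and 0.844), so no difference between genotypes was shown. The call in KO at 24 h was lost without KO 0 h replicate 3, KO 24 h replicate 0 or KO 24 h replicate 1 (adjusted p 0.0541 to 0.0666), and that in KO at 48 h was not lost under any alternative.

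A stretch of 150 bases from the PSMD3 promoter, which RefSeq (GRCh38.p14) places at chr17:39980647-39980796 on the plus strand and which ends 10 bases before the transcription start, is shown because, of the genes that fell, PSMD3 has an antioxidant response element core (TGACNNNGC) there, in capitals. PSMD2 has a match to none of the searched motifs in its promoter windows.
PSMD3: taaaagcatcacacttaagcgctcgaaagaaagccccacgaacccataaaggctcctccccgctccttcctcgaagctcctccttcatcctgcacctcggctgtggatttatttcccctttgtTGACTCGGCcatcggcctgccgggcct

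The other 15 regulatory genes were not called. Class by class, the 6 base ATPases, which unfold substrates, had a median change of -0.51 in WT at 24 h and -0.31 at 48 h, with 5 of 6 below 0 at both times, and -0.02 and 0.10 in KO. In KO 3 and 4 of the 6 lay above 0. Of all genes tested 48.7% and 49.9% lay above 0 in WT at 24 h and 48 h. The 8 lid genes, whose products together form the lid, where ubiquitin chains are removed, ranged from -0.99 to 0.71 in WT at 24 h and from -1.44 to 0.91 in KO at 48 h. The class median of all 17 was -0.41 and -0.29 in WT and 0.02 and -0.07 in KO.

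In the 20S core PSMA3, an alpha ring subunit on chromosome 14 from 58244831 to 58272012 (plus strand), was the gene that rose. At 0 h it read 70.3, 126, 130 and 128 FPKM in WT and 200, 144, 148 and 202 FPKM in KO. WT libraries read 171, 155, 194 and 196 FPKM at 24 h and 227, 170, 165 and 141 FPKM at 48 h, all above those of WT at 0 h. KO libraries read 207, 190, 197 and 170 FPKM at 24 h and 180, 144, 166 and 153 FPKM at 48 h, within or near the range of KO at 0 h. The change in WT was 0.69 ± 0.19 (limma, adjusted p = 0.0354) at 24 h, or 1.57-fold by the means, and 0.65 ± 0.19 (adjusted p = 0.0356) at 48 h. In KO it was 0.15 ± 0.19 and -0.10 ± 0.19 (adjusted p = 0.739 and 0.834), and the second value turned positive, to 0.08 and 0.33, under median-of-ratios rescaling and quantile normalization. The difference between the KO and WT changes was -0.54 ± 0.26 and -0.74 ± 0.26 (limma, adjusted p = 0.901 and 0.629), so it was not shown.

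The WT calls of PSMA3 rest on few libraries. Library WT 0 h replicate 0 (70.3 FPKM) stood below the other 3, and without it the change was 0.47 at 24 h and 0.43 at 48 h (limma, adjusted p = 0.140 and 0.150). The 24 h call was also lost without WT 24 h replicate 0, 2 or 3, and the 48 h call without WT 48 h replicate 0, 1 or 2, with adjusted p from 0.0556 to 0.133 over these 6 fits.

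For PSMA3 150 bases of promoter are given, at chr14:58244681-58244830 (GRCh38.p14, plus strand), ending 12 bases before the start, because it carries a CCAAT box on each strand close together, in capitals. CCAAT boxes are bound by the factor NF-Y.
PSMA3: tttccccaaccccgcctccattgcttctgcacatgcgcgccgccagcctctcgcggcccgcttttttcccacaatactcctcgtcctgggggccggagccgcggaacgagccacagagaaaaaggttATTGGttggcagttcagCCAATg

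The remaining core genes were not called. In WT at 48 h 12 of the 14 core genes lay above 0, including all 7 of the alpha ring, with a class median of 0.20, and in KO at 48 h 9 of 14 did, with a median of 0.16. At 24 h the class medians were -0.03 in both genotypes. Of all genes tested 49.9% (WT) and 49.0% (KO) lay above 0 at 48 h. Of the alpha ring 4 of 7 genes lay above 0 in WT at 24 h, and 3 and 4 of 7 in KO at 24 h and 48 h. The 14 genes were read from the same libraries, so their signs are not independent. Among the genes nearest to a call, named after their values were seen, were PSMA1, an alpha ring subunit, at 0.90 ± 0.28 in WT at 48 h (limma, adjusted p = 0.0562) and PSMB4, a beta ring subunit, at 0.70 ± 0.27 in KO at 48 h (adjusted p = 0.113).

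PSME4 encodes an activator that caps the core in place of the 19S particle and is known for the degradation of acetylated histones. It lies on chromosome 2 from 53864067 to 53970840 (minus strand). At 0 h it read 7.23, 9.98, 4.79 and 9.27 FPKM in WT and 9.37, 5.49, 4.89 and 6.36 FPKM in KO. KO libraries read 11.2, 10.8, 10.6 and 11.04 FPKM at 24 h and 19.3, 13.6, 12.6 and 12.2 FPKM at 48 h, all above KO at 0 h. WT libraries read 11.5, 9.03, 15.2 and 14.1 FPKM at 24 h and 11.2, 9.35, 14.7 and 9.15 FPKM at 48 h, which overlap WT at 0 h. The change was 1.10 ± 0.30 in KO at 48 h (limma, adjusted p = 0.0173), 2.21-fold by the means. It was 0.74 ± 0.30 in KO at 24 h (adjusted p = 0.171) and 0.66 ± 0.30 and 0.51 ± 0.30 in WT (adjusted p = 0.270 and 0.377), not called. The difference between KO and WT at 48 h was 0.60 ± 0.42 (limma, adjusted p = 0.844). The call was lost without KO 0 h replicate 2 (adjusted p = 0.0597) or KO 48 h replicate 0 (adjusted p = 0.0703). A 30-base stretch of its promoter, at chr2:53971008-53971037 on the minus strand, is shown for the antioxidant response element core it carries on the other strand, in capitals.
PSME4: cccggcggctGCAGCGTCAccagcagagcc

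**Figure D3:**
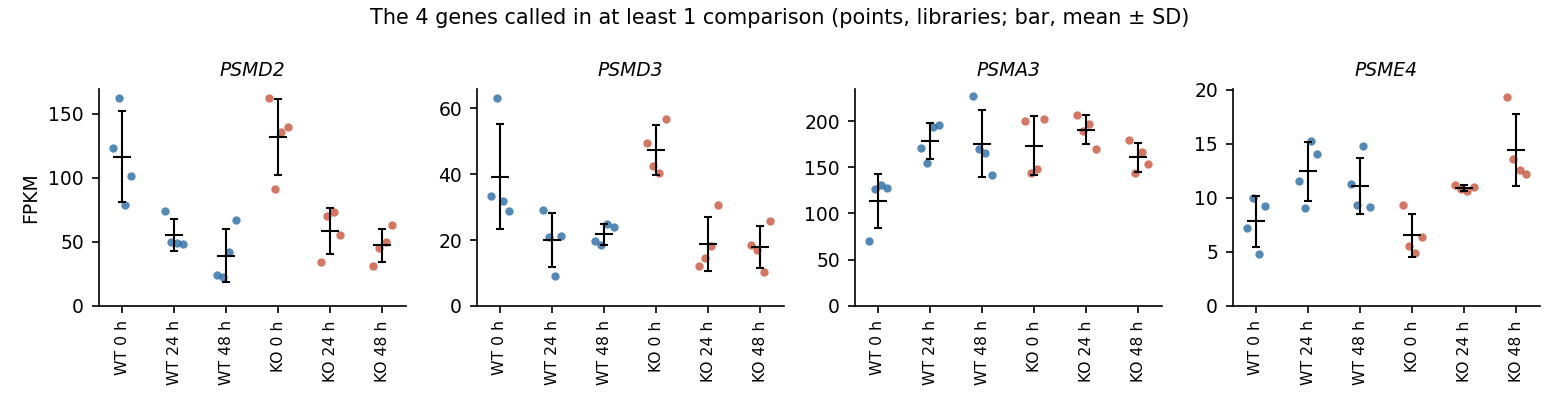
FPKM of PSMD2, PSMD3, PSMA3 and PSME4 in each library, by group (points, 4 libraries; bars, mean ± SD; axes start at 0). All 16 treated libraries lie below all 8 at 0 h for PSMD2, and the treated KO libraries lie above KO at 0 h for PSME4.

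The assembly chaperones and other regulators besides PSME4 were not called. Their changes ranged from -0.67 to 1.96 in WT at 24 h and from -0.97 to 2.01 in KO at 48 h. The highest values, 1.96 and 2.01, belong to 19S assembly chaperones, which averaged 5.73 to 7.72 FPKM. The lowest in KO, -0.97, belongs to a 20S assembly chaperone, a class that averaged 8.04 to 416 FPKM. All 4 genes of that class lay below 0 in KO at 48 h, with a median of -0.46 and a lowest adjusted p of 0.112 (limma). PSMG4 averaged 466 ± 85.0 FPKM at 0 h and 406 ± 85.5 FPKM at 48 h in WT, and 473 ± 41.3 FPKM and 377 ± 29.5 FPKM in KO (SD, n = 4). The change in KO at 48 h was -0.33 ± 0.16 (limma, adjusted p = 0.226).

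None of the catalytic or inducible genes was called in any comparison. The chymotrypsin-like subunit PSMB5 read 22.0, 28.0, 5.79 and 39.4 FPKM in WT and 17.4, 29.1, 22.2 and 35.6 FPKM in KO at 0 h, and 18.0, 13.2, 25.2 and 27.1 FPKM and 26.5, 68.0, 44.7 and 42.5 FPKM at 48 h. In KO at 48 h its mean of 45.4 ± 17.1 FPKM stood above 26.1 ± 7.97 FPKM at 0 h, with overlapping libraries and a change of 0.76 ± 0.48 (limma, adjusted p = 0.388). In WT at 48 h the change was 0.04 ± 0.48 (adjusted p = 1).

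The caspase-like subunit PSMB6 averaged 17.9 ± 10.4 FPKM in WT at 0 h, 33.3 ± 14.7 FPKM at 24 h and 25.8 ± 5.97 FPKM at 48 h, and 22.8 ± 5.88, 16.9 ± 14.3 and 14.1 ± 2.93 FPKM in KO (SD, n = 4). Its changes were 1.08 ± 0.56 and 0.80 ± 0.56 in WT and -0.81 ± 0.56 and -0.66 ± 0.56 in KO, of opposite sign (limma, adjusted p 0.360 to 0.554). The difference between the genotypes' changes was -1.90 ± 0.79 at 24 h and -1.46 ± 0.79 at 48 h (limma, adjusted p = 0.901 and 0.799). The trypsin-like subunit PSMB7 averaged 63.2 ± 8.70, 56.7 ± 20.9 and 55.6 ± 22.2 FPKM in WT and 58.5 ± 6.52, 47.9 ± 7.12 and 70.4 ± 9.55 FPKM in KO, with every change between -0.29 and 0.26.

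Of the interferon-inducible catalytic subunits PSMB8 was above 0 in 3 of 24 libraries, at 1.34 FPKM in WT at 24 h (replicate 3), 2.11 FPKM in WT at 48 h (replicate 0) and 1.88 FPKM in KO at 48 h (replicate 2). PSMB9 was above 0 in 1 library, at 0.524 FPKM in WT at 48 h (replicate 1). These readings are of few fragments, so a change would not be detectable at this depth. In the groups where they were above 0, estimated group means were 0.632 to 0.893 fragments for PSMB8 and 0.250 for PSMB9. PSMB8-AS1, the non-coding transcript on the opposite strand of PSMB8, averaged 7.29, 11.1 and 18.9 FPKM in WT and 2.23, 13.1 and 5.92 FPKM in KO at 0 h, 24 h and 48 h. Its part in the readings of PSMB8 was not tested. Tissue-specific PSMA8, known from the testis, and PSMB11, known from the thymus, were listed at 0 in all 24.

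PSMB10 was the only inducible catalytic gene to pass the filter of a mean of 0.5 FPKM. In WT it read 19.6, 3.68, 15.8 and 7.93 FPKM at 0 h, 0, 7.23, 5.02 and 1.96 FPKM at 24 h, and 7.06, 7.57, 0 and 4.59 FPKM at 48 h. In KO it read 2.71, 5.44, 6.64 and 3.07 FPKM at 0 h, 4.81, 1.94, 0 and 0 FPKM at 24 h, and 7.62, 5.68, 9.33 and 3.61 FPKM at 48 h. These group means stand for an estimated 1.78 to 9.39 fragments, and all groups overlap with 0 h of their genotype. The changes were -1.95 ± 0.92 and -1.56 ± 0.92 in WT and -1.81 ± 0.92 and 0.52 ± 0.92 in KO (limma, adjusted p 0.301 to 0.814).

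The 11S activator genes were as variable. PSME1 read 8.26, 3.05, 5.43 and 40.5 FPKM in WT at 0 h, so a single library set the mean of 14.3 FPKM, and averaged 4.88 ± 3.89 FPKM at 24 h and 10.2 ± 9.38 FPKM at 48 h. In KO it went from 12.8 ± 6.45 to 10.4 ± 7.15 and 4.39 ± 2.73 FPKM (SD, n = 4), a change of -1.50 ± 0.79 at 48 h (limma, adjusted p = 0.277). PSME2 read 10.7, 25.4, 7.47 and 1.35 FPKM in WT at 0 h and 31.0, 32.6, 14.9 and 41.2 FPKM at 24 h. That change, 1.82 ± 0.73 with an adjusted p of 0.199 (limma), had the smallest adjusted p of the 54 tests on these 6 genes. In KO PSME2 averaged 21.6 ± 11.3, 19.8 ± 11.8 and 15.7 ± 13.4 FPKM, with changes of -0.12 ± 0.73 and -0.79 ± 0.73.

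**Figure D4:**
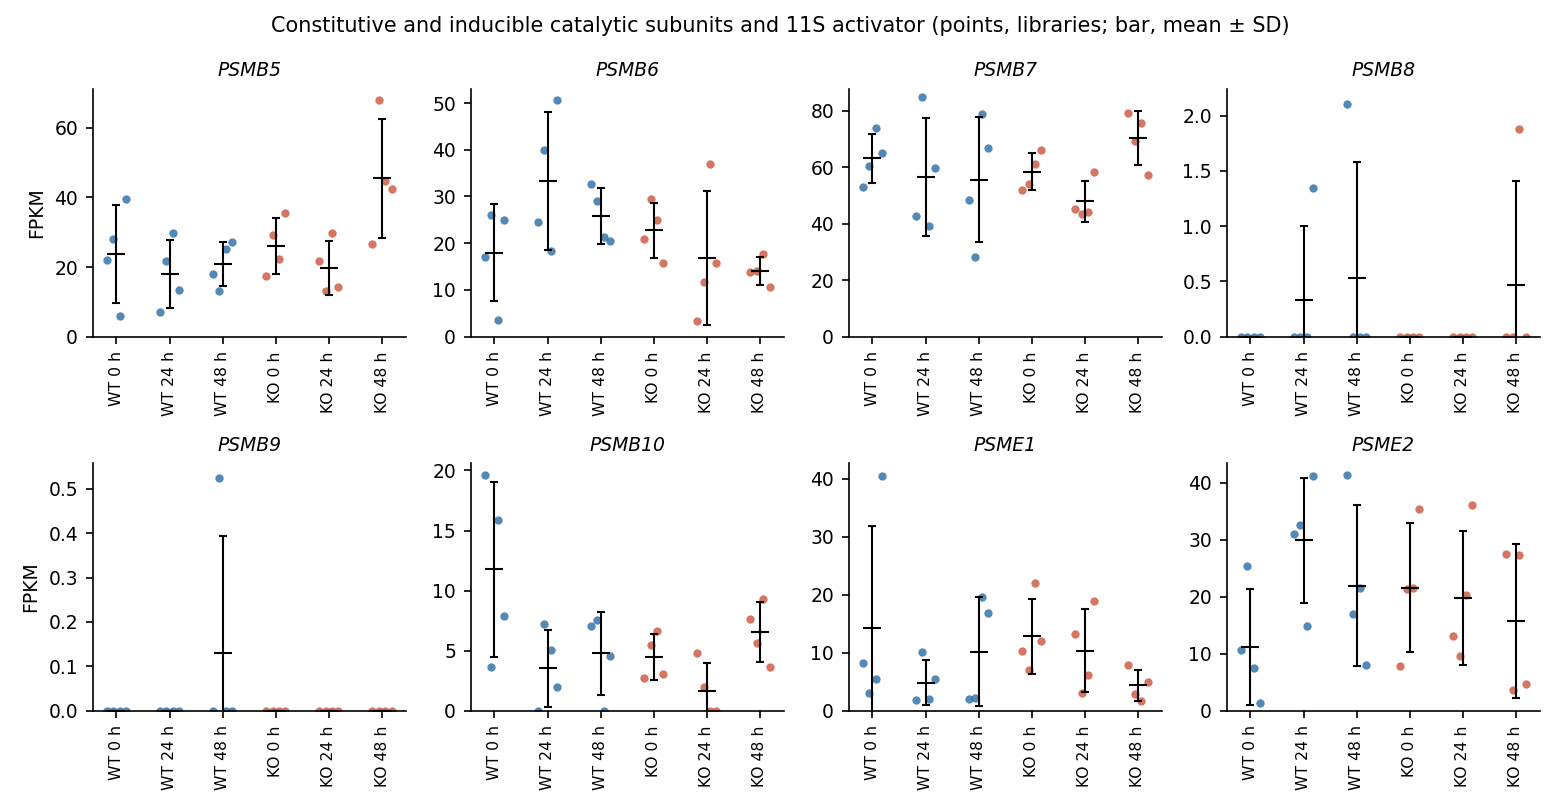
FPKM of the 3 constitutive catalytic subunits, the 3 inducible ones and the 11S activator genes in each library, by group (points, 4 libraries; bars, mean ± SD; each axis starts at 0 and has its own scale). PSMB8 is above 0 in 3 libraries and PSMB9 in 1, and every treated group of PSMB10 overlaps 0 h of its genotype.

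Interferon acts on the inducible genes through promoter elements built from GAAA repeats. Stretches of 30 bases are shown for the 4 inducible genes with an interferon response core (a pair of GAAA half-sites with 2 bases between them, on either strand, in capitals), at chr6:32844032-32844061 (PSMB8, minus strand), chr16:67936852-67936881 (PSMB10, minus), chr14:24136189-24136218 (PSME1, plus) and chr14:24146619-24146648 (PSME2, minus), from RefSeq GRCh38.p14.
PSMB8: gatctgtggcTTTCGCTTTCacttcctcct
PSMB10: gggtaaaggcGAAAGCGAAAgcaggaagta
PSME1: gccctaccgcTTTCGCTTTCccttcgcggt
PSME2: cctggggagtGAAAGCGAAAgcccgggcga

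RefSeq windows of 250 bases before to 50 after the start were matched for 42 of the 48 genes, and motifs were searched on both strands. The interferon core was in 7 of the 42 (16.7%; PSMA4, PSMB4 and PSMG4 besides the 4 shown), against 4.38% of all 27305 genes with a window. The antioxidant response element core was in 15 (35.7%), against 16.1%. CCAAT was in 20 (47.6%), against 39.7%, and the ATF4 core TGATGNAA in 1, PSMF1 (2.38%), against 4.46%. Of the 4 called genes PSMD3 and PSME4 have the antioxidant core, and PSMD3 fell while PSME4 rose.

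KO was compared with WT at each time to ask whether the loss of ABHD6 went with a change in proteasome genes. No PSM gene was called at 0 h, 24 h or 48 h, where 0.0985%, 0.0116% and 0.0638% of all genes were called, and 3, 1 and 2 of the 44 had an unadjusted p under 0.05 (limma), against 6.92%, 5.17% and 6.56% of all genes. The KO and WT libraries did not overlap for 3 of the 44 at 0 h (6.82%), 0 at 24 h and 4 at 48 h (9.09%), against 2.72%, 2.92% and 4.11% of all genes tested. The median difference was -0.02, -0.06 and 0.12, with a median SE of 0.38. Even a difference of several SE went uncalled (PSMA3 at 0 h, below). A difference well above 0.38 in a single gene could therefore have gone undetected. PSMD2 differed by 0.20 ± 0.32, 0.04 ± 0.32 and 0.37 ± 0.32 and PSMD3 by 0.33 ± 0.35, -0.07 ± 0.35 and -0.33 ± 0.35 (limma, adjusted p 0.896 to 1).

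PSMA3 was the PSM gene with the lowest adjusted p at 0 h. Its KO libraries (144 to 202 FPKM) all lay above the WT ones (70.3 to 130 FPKM), with a difference of 0.63 ± 0.19 (limma, adjusted p = 0.349), and at 24 h and 48 h the difference was 0.10 ± 0.19 and -0.11 ± 0.19. PSMB5 differed by 1.08 ± 0.48 at 48 h (adjusted p = 0.720). The test of whether KO and WT changed unequally called no PSM gene at 24 h or 48 h, where 0% and 0.0522% of all genes were called and 2 and 4 of the 44 (4.55% and 9.09%) had an unadjusted p under 0.05, against 5.51% and 6.60% of all genes.

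Of the 6 ubiquitin supply genes 1 was called in WT at 24 h, 1 in WT at 48 h, 1 in KO at 24 h and 2 in KO at 48 h, all higher, where 4.06%, 6.79%, 5.64% and 9.82% of all genes were called. RPS27A, which encodes ubiquitin fused to a ribosomal protein, rose in all 4 comparisons with 0 h (ribosomal protein genes have near-identical pseudogenes, so its value is uncertain), by 0.91 ± 0.18 and 0.76 ± 0.18 in WT and 0.74 ± 0.18 and 1.21 ± 0.18 in KO (limma, adjusted p 8.1e-05 to 0.0163). Its libraries read 106 to 121 FPKM in WT at 0 h and 178 to 251 FPKM at 24 h. UBA6, a ubiquitin-activating enzyme, rose in KO at 48 h (1.94 ± 0.60, limma, adjusted p = 0.0427), from a mean of 1.93 to 9.17 FPKM. In WT it averaged 7.40 FPKM at 0 h and 6.68 FPKM at 48 h, and the difference between the KO and WT changes, 1.94 ± 0.85, was not called (limma, adjusted p = 0.714).

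Of 8 genes of the transcription factors that control proteasome genes and their processing, 1 was called in KO at 24 h and 2 in KO at 48 h, all higher, against the same 5.64% and 9.82%. BACH1, a repressor at antioxidant elements, rose in KO at 24 h (2.30 ± 0.52) and 48 h (2.29 ± 0.52; limma, adjusted p = 0.00753 and 0.00442), from a mean of 0.999 FPKM to 6.46 and 6.68 FPKM. In WT it averaged 2.47, 2.72 and 4.07 FPKM at 0 h, 24 h and 48 h. NGLY1, the glycanase that processes NFE2L1, rose in KO at 48 h (2.47 ± 0.75, limma, adjusted p = 0.0359), from 2.85 to 9.91 FPKM, with 2 of 4 libraries at 0 h listed at 0. In WT it averaged 12.3 FPKM at 0 h and 10.8 FPKM at 48 h. None of the 8 was called in WT, where 4.06% and 6.79% of all genes were called at 24 h and 48 h. The KO and WT changes were not shown to differ. At 48 h that difference was 1.45 ± 0.73 for BACH1 and 2.54 ± 1.06 for NGLY1 (limma, adjusted p = 0.768 and 0.670), and at 24 h it was 1.98 ± 0.73 for BACH1 (adjusted p = 0.883).

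None of the 14 assembly and associated factors was called in a comparison with 0 h. Of 16 antigen processing and interferon genes tested out of 21, none was called at 24 h. Of all genes tested, 4.06% and 6.79% were called in WT at 24 h and 48 h, and 5.64% and 9.82% in KO. In WT at 48 h B2M, the light chain of class I molecules (1.83 ± 0.54), and PDIA3, a disulfide isomerase (0.88 ± 0.26), rose, and CALR, a chaperone of class I molecules, fell (-0.53 ± 0.16; limma, adjusted p 0.0395 to 0.0435). In KO at 48 h 1 gene of the list was called higher and 1 lower, the lower one being CALR again (-0.66 ± 0.16, limma, adjusted p = 0.00634). No gene of these lists was called between KO and WT at 0 h, 24 h or 48 h, where 0.0985%, 0.0116% and 0.0638% of all genes were.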

How the data were processed

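RNA of 24 Huh7 libraries was made with a directional mRNA kit and sequenced, per the labels' protocols. The authors deposited FPKM values for 58024 Ensembl gene IDs. The submitters' processing notes name GRCh38, STAR, Cufflinks and Cuffdiff, with no version, role or strand setting, and no scaling between libraries is stated. Counts were not used. IDs were matched to GENCODE release 29 without version numbers (57375 of 57979, 99.0%) after dropping 45 chromosome Y copies of genes shared with chromosome X, which were at 0. Fragments per library were estimated from the smallest steps of FPKM in 4786 genes with at least 1500 exon bases. This depth leaves genes of few FPKM with few fragments.

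Groups came from the labels. Values were log2(FPKM + 0.5) of the 17252 genes averaging 0.5 FPKM or more, fitted in limma 3.58.1 (R 4.3.3) with 6 group means and a variance trend (18 residual degrees of freedom, prior 4.63). Benjamini-Hochberg adjustment ran over all genes within each of 9 comparisons. The fit was also run on simulated data. Their spread between libraries was set and not taken from these libraries, so no result here rests on that run. The members and gene lists were chosen with earlier results of these data known. Named with their libraries were members called in any comparison and the catalytic and inducible subunits, and from each list up to 4 called genes by smallest adjusted p (some results of these lists are not reported here). Other members were named after their values were seen, among them those at the ends of a range. Alternatives were a filter at 2 FPKM or none, pseudocounts of 0.1 and 1, 2 rescalings, leaving the other groups out of the fit, no variance trend, the replicate number as a block, genes with no opposite-strand exon overlap, and each library left out. Tables were made in Python 3.11.15 with pandas 2.3.3, plots with matplotlib 3.10.9.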

Additional observations from a re-analysis of the deposited data

Results flagged for a closer look

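In 5 of the 60 sets of 4 libraries examined, for 10 genes in 6 groups, 1 library stood far from the other 3, where chance alone gives about 1 in 20. PSMA3 read 70.3 FPKM in WT at 0 h, replicate 0, and 126 to 130 FPKM in the others. PSMD2 read 74.2 FPKM in WT at 24 h, replicate 0, and 48.4 to 49.8 FPKM in the others. PSMD3 read 63.2 FPKM in WT at 0 h, replicate 1, and 28.8 to 33.3 FPKM in the others. PSMB7 read 58.5 FPKM in KO at 24 h, replicate 3, and 43.5 to 45.4 FPKM in the others. PSME1 read 40.5 FPKM in WT at 0 h, replicate 3, and 3.05 to 8.26 FPKM in the others.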

How the results depend on the processing

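No PSM gene was called between KO and WT, or for a difference of their changes, under any alternative run. The number called against 0 h was the same as reported with pseudocounts of 0.1 and 1 and with no filter. In WT at 24 h (1 reported) it was 0 in a fit of only the groups compared, with no variance trend and over genes with no opposite-strand overlap, and 0 to 1 with a library left out. In WT at 48 h (2) it was 4 with the filter at 2 FPKM, 0 with only the groups compared, 1 with no trend and 1 with no opposite-strand overlap, 3 with either rescaling, and 1 to 4 with a library left out. In KO at 24 h (2) it was 1 with quantile normalization, only the groups compared, no trend and no opposite-strand overlap, and 0 to 3 with a library left out. In KO at 48 h (3) it was 5 with median-of-ratios rescaling and with quantile normalization, 4 with the filter at 2 FPKM and with only the groups compared, 2 with no opposite-strand overlap (where PSME4 is not tested), and 2 to 3 with a library left out. PSMD2 in KO at 24 h was also lost with quantile normalization, only the groups compared, no trend and no opposite-strand overlap (adjusted p 0.0514 to 0.108), and PSMA3 in WT with the last 3 of these (0.0816 to 0.201 at 24 h, 0.0756 to 0.213 at 48 h). Median-of-ratios rescaling moved the median of all genes in KO at 48 h to 0.11, and raised the share of higher calls from 36.0% to 46.2% and from 37.8% to 50.3% in WT and from 37.8% to 48.5% and from 34.6% to 48.9% in KO; with quantile normalization the shares were 54.4%, 58.2%, 56.5% and 52.5%. The members' median in KO at 48 h became 0.16 and 0.25. Under the same 2 settings the PSMA3 change in KO at 48 h, not called, reversed to 0.079 and 0.33. With a library left out, some uncalled values changed sign: in WT PSMB5 ranged from -0.85 to 0.072 at 24 h and from -0.52 to 0.37 at 48 h, PSMB7 from -0.47 to 0.018 and PSME1 from -0.93 to 0.29 at 48 h; in KO PSME2 from -0.52 to 0.18 at 24 h; and between KO and WT PSMD2 from -0.092 to 0.27 and PSMD3 from -0.40 to 0.14 at 24 h and PSMA3 from -0.21 to 0.018 at 48 h. The replicate numbers did not pair the libraries: deviations of same-numbered libraries correlated between -0.13 and 0.14 over 3341 genes, and 7 of 24 libraries correlated best with their own number. With the replicate number as a block the members called were 1, 3, 2 and 3, PSMA1 being added in WT at 48 h. Depth limits PSMB8, PSMB9 and PSMB10 the most.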
